A study of Mus musculus with 6 samples.

Results

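The integrin and laminin genes are the protein-coding rows of the deposited count table whose symbols name an integrin alpha or beta chain, the integrin-beta-like gene Itgbl1, or a laminin alpha, beta or gamma chain. There were 38 such genes among 25700 rows, 27 of them integrin genes and 11 laminin genes, and 37 had enough reads to be tested. RNA was sequenced from the proximal incisor, the growing end of the mouse tooth, of 6 C57BL/6 mice aged 5 weeks. The 3 cKO mice had the genotype Gli1-CreERT2;Runx2fl/fl, in which tamoxifen activates Cre recombinase in cells that express the hedgehog effector Gli1 and so deletes floxed Runx2 there. The 3 control mice were Runx2fl/fl without Cre, so loss of Runx2 and effects of the CreERT2 allele cannot be told apart. Per the labels' protocols, tamoxifen was injected on 3 consecutive days at 1 month of age at 1.5 mg per 10 g body weight, and both groups carry that protocol. Tissue was taken 1 week after induction.

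Integrins are receptors made of an alpha and a beta chain that anchor cells to the extracellular matrix or to other cells and signal in both directions across the membrane. Laminins are cross-shaped trimers of an alpha, a beta and a gamma chain that form the sheet of the basement membrane. In teeth the enamel epithelium sits on laminin-rich basement membrane and uses epithelial integrins, while the pulp and follicle mesenchyme uses receptors for collagen and fibronectin. Leukocytes use a set of integrins of their own to leave vessels and to bind other cells.

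The tissue label is dental mesenchyme, and all 9 mesenchyme markers looked for had reads, but the libraries also held much epithelium. The summed level of 4 secretory ameloblast genes (Amelx, Ambn, Enam and Mmp20) was 22163 to 46682 CPM (counts scaled to library size) in cKO mice and 60042 to 79541 CPM in controls. Libraries also stood apart from their group. Control 1 was the one male (Xist 0.596 CPM, against 2865 to 3389.8 CPM in the 5 females) and had summed skeletal muscle markers of 360.1 CPM, against 13.0 to 16.5 CPM elsewhere. Late enamel genes summed to 1109.9 to 2666 CPM in the cKO mice, 1804 CPM in control 2 and 110.5 to 119 CPM in the other controls. Total estimated counts ran from 53525185 to 66694240. Runx2 itself measured 62.6, 54.0 and 49.0 CPM in cKO mice and 79.7, 77.7 and 81.2 CPM in controls, lower in every cKO mouse (log2 fold change -0.53, edgeR adjusted p = 0.0714, DESeq2 adjusted p = 0.000128).

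None of the 37 tested integrin and laminin genes passed the threshold over all genes in either direction (edgeR quasi-likelihood test, adjusted p under 0.05), where 0.026% of all 19264 tested genes did (0.0208% higher and 0.00519% lower in cKO mice). At an unadjusted p under 0.05 there were 15 of 37 members, or 40.5%, against 17.3% of all tested genes, with 7 higher (8.71% of all) and 8 lower (8.55% of all) in cKO mice. DESeq2, the alternative test, called 8 of 37 members, or 21.6%, against 7.48% of the genes to which it gave an adjusted p. The 4 lower in cKO mice (3.55% of all) included Itgb6 and the laminin chains Lama3 and Lamb3, and the 4 higher (3.93% of all) were Itgbl1, Itgb2, Itgam and Itga8. For 15 members the cKO and control values did not overlap, against 23.1% of all tested genes, 8 with cKO above (11.1% of all) and 7 with cKO below (12% of all). The median log2 fold change was 0.038 over the members and 4.8e-05 over all tested genes. By class the median was -0.33 for the 4 epithelial integrins, 0.33 for the 8 tested leukocyte and platelet integrins and 0.045 for the 8 laminin chains outside the epithelial class, where it was -0.028 without control 3. It was 0.17 for the 9 alpha chains of the matrix receptors and -0.087 for their 4 beta chains, where it was -0.014 without cKO 3.

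**Figure D1:**
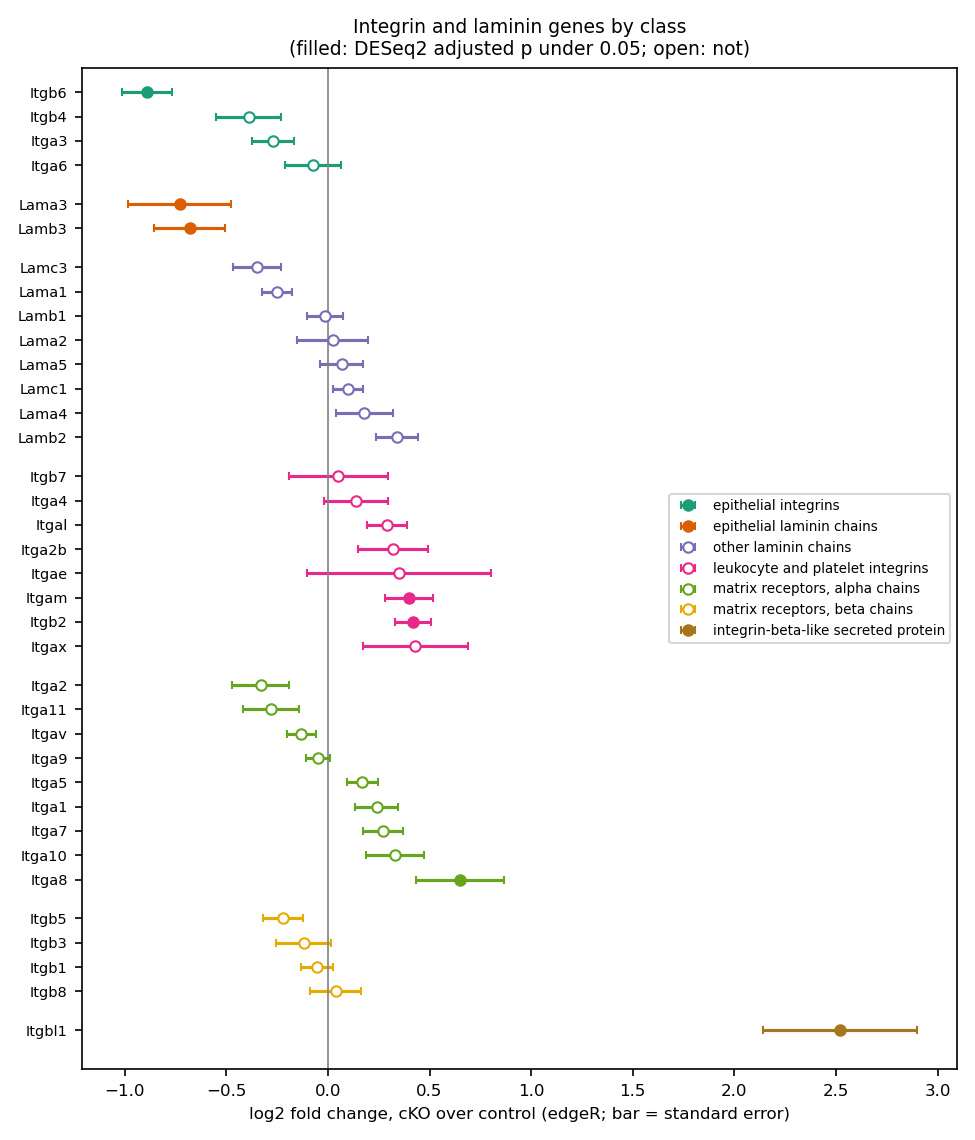
Log2 fold change of cKO over control for the tested members described here, by class, with the edgeR standard error as bars. Filled points passed DESeq2's threshold, and Itgbl1 at 2.52 lies far to the right of the others, which run from -0.89 to 0.65.

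Promoters are shown for 5 of the 8 genes that DESeq2 called, because the deleted gene encodes a DNA-binding factor. Promoter windows were found for these 5 and not for Lama3 and Itgb2, which DESeq2 also called. The sequences are RefSeq's, build GRCm38.p6, and hold 250 bases before and 50 bases after an annotated start, read 5′ to 3′ on the strand of the gene. Where a gene has several starts in that table, the first is shown. Capitals mark a match to the RUNX core motif, searched as TGTGGT and TGCGGT on both strands.
Itgb6, chr2:60722554-60722853, minus strand: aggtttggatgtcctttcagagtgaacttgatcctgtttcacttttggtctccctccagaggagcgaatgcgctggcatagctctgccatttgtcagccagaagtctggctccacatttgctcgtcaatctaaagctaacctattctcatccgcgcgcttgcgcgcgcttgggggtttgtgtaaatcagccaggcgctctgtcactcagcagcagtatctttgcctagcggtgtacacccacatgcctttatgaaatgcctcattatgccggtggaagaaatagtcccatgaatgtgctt
Lamb3, chr1:193301744-193302043, plus strand: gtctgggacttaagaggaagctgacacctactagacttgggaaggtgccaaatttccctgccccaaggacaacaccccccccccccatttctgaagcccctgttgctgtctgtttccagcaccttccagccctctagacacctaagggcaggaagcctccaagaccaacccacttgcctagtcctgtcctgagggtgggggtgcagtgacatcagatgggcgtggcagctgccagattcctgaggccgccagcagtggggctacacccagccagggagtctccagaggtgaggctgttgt
Itgam, chr7:128062390-128062689, plus strand: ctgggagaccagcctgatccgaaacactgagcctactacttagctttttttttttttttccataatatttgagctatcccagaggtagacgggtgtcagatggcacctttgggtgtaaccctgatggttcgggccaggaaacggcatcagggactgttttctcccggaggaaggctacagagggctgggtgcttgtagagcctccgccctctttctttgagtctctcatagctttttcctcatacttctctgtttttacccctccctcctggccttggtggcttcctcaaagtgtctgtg
Itga8, chr2:12301895-12302194, minus strand: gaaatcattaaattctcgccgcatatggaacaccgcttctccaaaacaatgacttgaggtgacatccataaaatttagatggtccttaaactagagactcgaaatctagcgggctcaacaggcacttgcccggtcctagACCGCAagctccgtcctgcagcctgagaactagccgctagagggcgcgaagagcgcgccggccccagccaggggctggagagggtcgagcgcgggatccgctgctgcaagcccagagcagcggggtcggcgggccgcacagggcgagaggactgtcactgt
Itgbl1, chr14:123659890-123660189, plus strand: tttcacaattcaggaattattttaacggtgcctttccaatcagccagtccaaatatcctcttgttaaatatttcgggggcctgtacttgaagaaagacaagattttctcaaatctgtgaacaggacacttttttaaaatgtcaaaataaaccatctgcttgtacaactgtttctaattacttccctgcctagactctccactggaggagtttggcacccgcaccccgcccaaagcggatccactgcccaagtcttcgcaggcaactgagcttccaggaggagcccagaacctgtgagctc
Of these 5 windows only that of Itga8 held a match, TGCGGT on the opposite strand, which starts 111 bases upstream. Of the 24 members found in the table, 5 held either motif in at least 1 window, namely Itga3, Itga4, Itgax, Itga8 and Lama5. These 5 matches were in 5 of the 27 windows of members, or 18.5%, against 22.4% of all 32851 promoter windows. TGTGGT alone stood in 16.8% of all windows and TGCGGT in 6.5%. A match is a run of letters and not a shown binding site, and its absence concerns only these 300 bases. The Lamb3 windows searched lie inside the counted gene (chromosome 1, 193207699 to 193343878, plus strand), so the start of that gene model was not searched.

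All 4 epithelial integrins had log2 fold changes below 0, and Itgb6 stood furthest down. Itgb6 encodes the beta chain that pairs with Itgav to form an epithelial receptor able to activate latent TGF-beta, and mice without it have defective enamel. Itgb6 (chromosome 2, 60598292 to 60722643, build mm10) measured 29.9, 29.7 and 24.1 CPM in cKO mice and 43.9, 54.8 and 56.7 CPM in controls. Every cKO mouse lay below every control, at a cKO level 0.538 times that of control. The log2 fold change was -0.89 (SE 0.123), which missed the edgeR threshold (adjusted p = 0.0614) and passed that of DESeq2 (adjusted p = 7.73e-08). With any 1 mouse left out, the edgeR value stayed between -0.99 and -0.80, and DESeq2 called the gene in all 6 such fits.

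The level of its partner chain overlapped between the groups. Itgav (chromosome 2, 83724397 to 83806916), the alpha chain shared by several receptors for fibronectin and vitronectin, measured 192, 175 and 173 CPM in cKO mice and 182, 202 and 208 CPM in controls. The log2 fold change of Itgav was -0.13 (SE 0.0727, edgeR adjusted p = 0.409), and 1 control lay among the cKO mice. Among the 5 beta chains that pair with Itgav, per kilobase of exon, the share of Itgb6 was 1.51% ± 0.131 in cKO mice and 2.61% ± 0.321 in controls (SD, n = 3 each; two-sided exact permutation p = 0.10). A p of 0.10 is the smallest that 3 against 3 mice allow, and over the 27 shares computed it was 0.225 after Benjamini-Hochberg adjustment. Itgb1 held 74.3% ± 1.86 of that pool in cKO mice and 71.4% ± 2.89 in controls, and Itgb5 held 22.7% ± 1.67 in cKO mice and 24.6% ± 2.54 in controls, both with groups that overlapped.

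The hemidesmosome integrin, a pair of Itga6 and Itgb4 that ties basal epithelial cells to laminin, differed less. Itgb4 (chromosome 11, 115974709 to 116008412) measured 177, 148 and 125 CPM in cKO mice and 167, 189 and 233 CPM in controls. The groups overlapped through cKO 1, and the log2 fold change was -0.39 (SE 0.159, edgeR adjusted p = 0.273). Itga6 (chromosome 2, 71745616 to 71858416) measured 329, 247 and 238 CPM in cKO mice and 255, 289 and 314 CPM in controls, with a log2 fold change of -0.074 (SE 0.139). The highest value of Itga6 was that of cKO 1, and its direction turned without cKO 3. Itga3 (chromosome 11, 95044474 to 95076801), which pairs with Itgb1 as a laminin receptor, measured 60.1, 63.9 and 51.4 CPM in cKO mice and 62.5, 72.9 and 75.7 CPM in controls. Its log2 fold change was -0.27 (SE 0.103, edgeR adjusted p = 0.249), and only cKO 2 reached into the control range. Itgb6 stood at 16.9, 20.0 and 19.2% of the Itgb4 level in cKO mice and at 26.4, 29.0 and 24.3% in controls, in CPM not scaled for length, so this ratio was lower in all cKO mice.

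Lama3 and Lamb3 encode an alpha and a beta chain of the epithelial laminin that binds the hemidesmosome integrin, and for each of them the cKO values all lay below the control values. Loss of either chain causes skin blistering with thin or pitted enamel in humans. Lama3 (chromosome 18, 12333819 to 12583013) measured 444, 468 and 239 CPM in cKO mice and 533, 638 and 736 CPM in controls, a log2 fold change of -0.73 (SE 0.254, edgeR adjusted p = 0.214, DESeq2 adjusted p = 0.0355). Lamb3 (chromosome 1, 193207699 to 193343878) measured 324, 338 and 236 CPM in cKO mice and 389.8, 489.9 and 555 CPM in controls, a log2 fold change of -0.68 (SE 0.174, edgeR adjusted p = 0.128, DESeq2 adjusted p = 0.00399). For both chains cKO 3 was the lowest mouse and control 3 the highest.

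Both differences varied with the mice included. With 1 mouse left out the log2 fold change ran from -0.89 to -0.48 for Lama3 and from -0.80 to -0.53 for Lamb3. DESeq2 lost its call of Lama3 without control 2 (adjusted p = 0.134) and without control 3 (adjusted p = 0.557). Its call of Lamb3 was lost without control 3 (adjusted p = 0.0613).

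**Figure D2:**
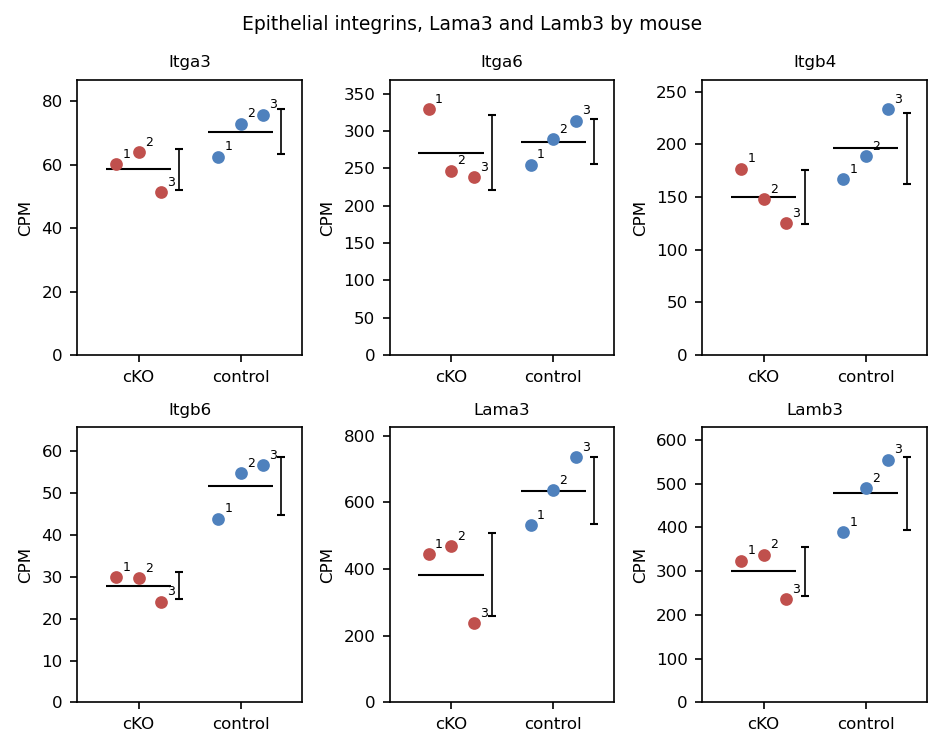
Level of each epithelial integrin, Lama3 and Lamb3 in CPM (linear axis) for each mouse, numbered by replicate, with cKO left of control; lines are means and bars 1 SD (n = 3 each). The groups do not overlap for Itgb6, Lama3 and Lamb3, where cKO 3 is the lowest mouse.

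Epithelial markers moved with these genes in part. The summed level of 13 dental epithelium markers, all with reads, overlapped between groups, at 4815, 4039 and 3223 CPM in cKO mice and 3753, 4092 and 4765 CPM in controls. Krt5 and Krt14 carry much of that sum, with log2 fold changes of 0.15 and 0.38, while 10 of the 13 markers lay below 0 and the median was -0.20. DESeq2 called Sp6 (-0.84) and Esrp1 (-0.55) lower and Krt15 (0.75) higher. Against that sum Lama3 and Lamb3 together stood at 15.9, 20.0 and 14.7% in cKO mice and at 24.6, 27.6 and 27.1% in controls, and the groups did not overlap. Itgb6 stood at 0.620, 0.735 and 0.748% of the sum in cKO mice and at 1.17, 1.34 and 1.19% in controls. Itgb4, whose CPM overlapped, stood at 3.67, 3.67 and 3.89% in cKO mice and at 4.44, 4.62 and 4.90% in controls, so it too lay lower against this sum in all cKO mice. Secretory ameloblast genes were lower in all cKO mice (32977, 46682 and 22163 CPM in cKO, 60042, 60362 and 79541 CPM in control), all 4 with groups that did not overlap. Relative to them Lama3 and Lamb3 stood at 2.33, 1.73 and 2.14% in cKO mice and at 1.54, 1.87 and 1.62% in controls, with groups that overlapped. Itgb6 stood at 0.0906, 0.0636 and 0.109% of them in cKO mice and at 0.0732, 0.0908 and 0.0712% in controls, which also overlapped. Amelx, Ambn and Enam made up nearly all of this sum, at log2 fold changes of -1.08, -0.84 and -0.99. Mmp20 differed less, at -0.29, and ratios to Mmp20 alone were not computed. The part of secretory ameloblasts in the result was not tested further, and in whole tissue fewer cells of a type and less RNA per cell cannot be told apart. Late enamel genes were as high in control 2 as in cKO mice. In control 2 the levels of Itgb6, Lama3 and Lamb3 lay between those of the other controls. That is 1 mouse, and the part of late enamel tissue in these levels was not tested.

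**Figure D3:**
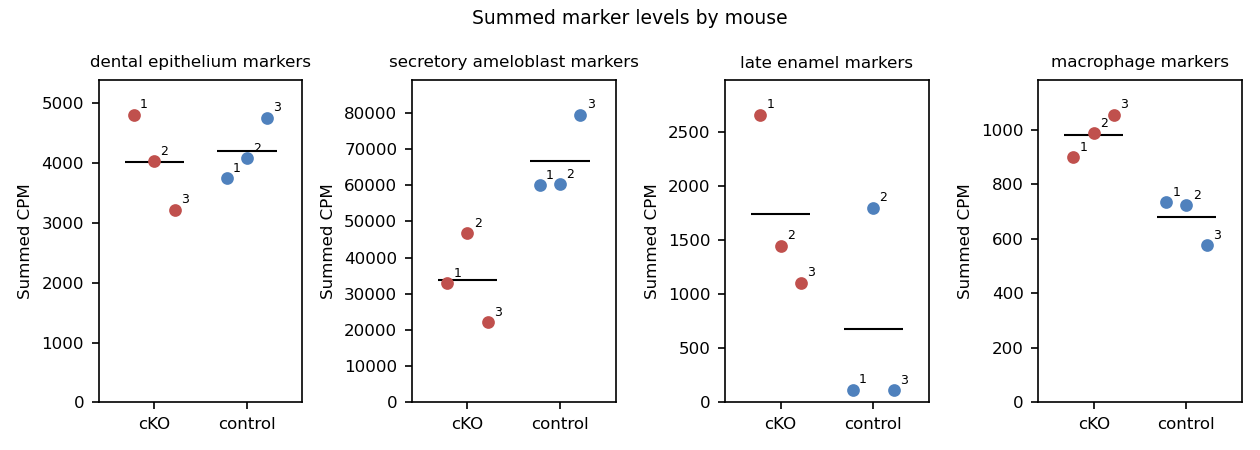
Summed CPM (linear axis) of 4 marker lists for each mouse, numbered by replicate, with cKO left of control and lines at the means. Secretory ameloblast sums lie lower and macrophage sums higher in every cKO mouse, dental epithelium sums overlap, and late enamel sums are high in control 2 as in cKO mice.

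Of the 8 laminin chains outside the epithelial class 5 had log2 fold changes above 0 and 3 below. Lamb2 (chromosome 9, 108479736 to 108490530), the beta chain of vessel, nerve and muscle basement membranes, measured 160.2, 172 and 196 CPM in cKO mice and 153, 141 and 123 CPM in controls. It was higher in every cKO mouse, with a log2 fold change of 0.34 (SE 0.104, edgeR adjusted p = 0.177, DESeq2 adjusted p = 0.0544). Endothelial markers, all 8 with reads, summed to 597, 565 and 596 CPM in cKO mice and 496, 498 and 471 CPM in controls, and their part in the Lamb2 result was not tested. Lama1 (chromosome 17, 67697259 to 67822647), the alpha chain of early epithelial basement membranes, measured 57.8, 63.4 and 55.3 CPM in cKO mice and 70.4, 74.2 and 65.3 CPM in controls. Lamc3 (chromosome 2, 31887291 to 31946539), a gamma chain of restricted tissues, measured 28.6, 37.8 and 36.2 CPM in cKO mice and 46.0, 45.9 and 38.9 CPM in controls. Both lay lower in every cKO mouse, at log2 fold changes of -0.25 (SE 0.0731) for Lama1 and -0.35 (SE 0.119) for Lamc3, and neither passed with edgeR or DESeq2. The chains Lama2, Lama4 and Lama5 and the widely used Lamb1 and Lamc1 had groups that overlapped and log2 fold changes between -0.014 and 0.18. Of these, Lamb1 measured 294 ± 19.8 CPM in cKO mice and 297 ± 26.2 CPM in controls, and Lamc1 433 ± 23.7 CPM in cKO mice and 404 ± 22.5 CPM in controls (SD, n = 3 each).

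The makeup of the alpha and of the beta chains was computed per kilobase of exon. Lama3 made up 48.3% ± 8.97 of alpha chain level in cKO mice and 62.2% ± 5.68 in controls (SD, n = 3 each for all shares given). Lama4 made up 21.2% ± 4.95 in cKO mice and 14.1% ± 3.56 in controls, and Lama5 15.3% ± 2.05 in cKO mice and 11.0% ± 0.347 in controls. Among beta chains Lamb3 made up 43.3% ± 5.29 in cKO mice and 57.5% ± 6.41 in controls, while Lamb2 made up 28.1% ± 4.90 in cKO mice and 18.4% ± 3.22 in controls and Lamb1 28.6% ± 1.37 in cKO mice and 24.1% ± 3.25 in controls. For each of these 6 shares the groups did not overlap, and the two-sided exact permutation p was 0.10, the smallest possible (0.225 after Benjamini-Hochberg adjustment over 27 shares). Without cKO 3 the difference between the groups was -8.74 percentage points for Lama3, against -13.9 with all mice, and 4.23 for Lama4, against 7.08. Without control 3 it was 2.79 points for Lamb1, against 4.55. Within a class a lower share of one chain makes the shares of the others higher.

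**Figure D4:**
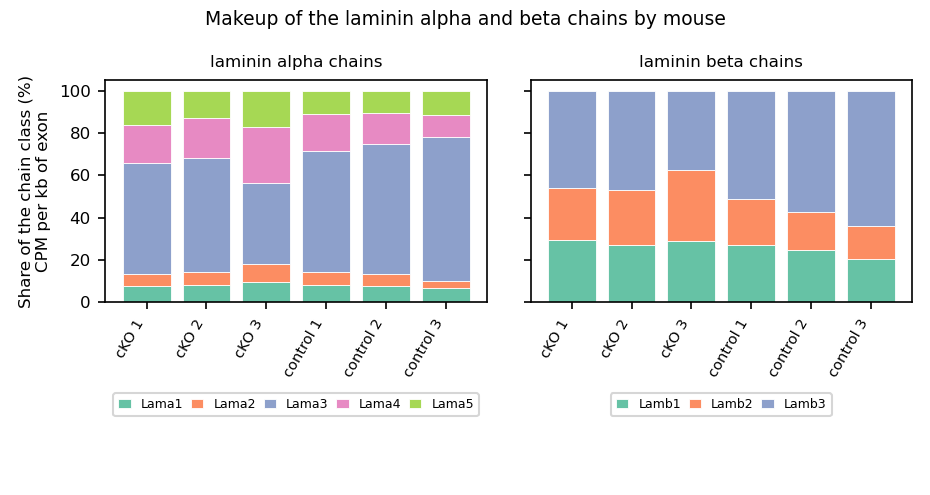
Stacked share in percent of each laminin alpha chain and of each beta chain within its class for each mouse, from CPM per kilobase of exon, with cKO mice left of controls. Lama3 and Lamb3 take a smaller share in all cKO mice, and least in cKO 3.

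All 8 tested leukocyte and platelet integrins had a log2 fold change above 0, and except for Itga4 their levels were low. Itgb2 (chromosome 10, 77530252 to 77565708), the beta chain common to the main leukocyte integrins, measured 9.27, 8.70 and 8.63 CPM in cKO mice and 6.83, 6.70 and 6.40 CPM in controls. The groups were well apart for Itgb2, at a log2 fold change of 0.42 (SE 0.0886, edgeR adjusted p = 0.0935, DESeq2 adjusted p = 0.00294), and DESeq2 called it in all 6 fits without 1 mouse. Itgam (chromosome 7, 128062640 to 128118491), the alpha chain of the complement receptor of macrophages and neutrophils, measured 16.6, 18.3 and 20.7 CPM in cKO mice and 15.3, 14.6 and 12.2 CPM in controls. Its log2 fold change was 0.40 (SE 0.118, edgeR adjusted p = 0.160, DESeq2 adjusted p = 0.0437), and the DESeq2 call was lost without cKO 2, cKO 3, control 2 or control 3, with an adjusted p up to 0.296. Itgam shares 68.7% of its exonic bases with the gene model Gm49368 on the same strand in GENCODE M21, so its level is uncertain.

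Itgal (chromosome 7, 127296260 to 127335138), the alpha chain of the lymphocyte receptor for Icam1, measured 6.87, 6.42 and 6.98 CPM in cKO mice and 5.42, 5.71 and 5.39 CPM in controls. The groups did not overlap, but it passed neither test (log2 fold change 0.29, SE 0.0974, edgeR adjusted p = 0.199). Itga2b (chromosome 11, 102453297 to 102470122), the platelet fibrinogen receptor's alpha chain, measured 1.99, 2.38 and 2.15 CPM in cKO mice and 1.43, 1.95 and 1.82 CPM in controls, a log2 fold change of 0.32 (SE 0.173, edgeR adjusted p = 0.398). Itgax, Itgae, Itga4 and Itgb7 had groups that overlapped and log2 fold changes of 0.43, 0.35, 0.14 and 0.052, none passing. Without control 3 the direction of Itgae turned, and without cKO 1 that of Itgb7. Itgad had too few reads to test, with 7, 1 and 4 counts in cKO mice and 2, 1 and 0 in controls.

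The alpha chains that pair with Itgb2 had shares that overlapped between the groups. Per kilobase of exon Itgam made up 70.7% ± 4.17 of the Itgb2 partners in cKO mice and 69.8% ± 3.75 in controls (SD, n = 3 each; exact permutation p = 0.70), and Itgal 19.8% ± 0.989 in cKO mice and 21.1% ± 1.22 in controls (exact permutation p = 0.20). Macrophage markers moved with these genes: all 10 had reads, and their sum was 898, 988 and 1055 CPM in cKO mice and 735, 724 and 577 CPM in controls. Against that sum Itgb2 stood at 1.03, 0.881 and 0.818% in cKO mice and at 0.929, 0.926 and 1.11% in controls, so the groups overlapped. Itgam stood at 1.84, 1.85 and 1.96% in cKO mice and at 2.08, 2.02 and 2.11% in controls, below the controls in every cKO mouse. Neutrophil and marrow markers summed to 52.0, 23.4 and 2.83 CPM in cKO mice and 2.57, 2.06 and 3.50 CPM in controls, and their part in the Itgam result was not tested. Platelet markers summed to 15.3 to 17.7 CPM in cKO mice and 12.8 to 14.0 CPM in controls beside Itga2b. Most of that sum was Pf4, at a log2 fold change of 0.43. Of the 4 platelet markers tested, 3 lay above 0, with Gp1ba at 0.074, and 1 below, Gp1bb at -0.19. The part of platelets in the Itga2b result was not tested. T and NK cell markers overlapped, at 3.75 to 4.55 CPM in cKO mice and 3.58 to 4.84 CPM in controls. Dendritic cell markers summed to 11.9 to 13.6 CPM in cKO mice and 11.2 to 11.8 CPM in controls. B cell markers summed to 1.84 to 2.40 CPM in cKO mice and 1.43 to 1.82 CPM in controls. The part of these cells in the leukocyte integrins was not tested either.

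Among the matrix receptors Itga8 differed most. Itga8 (chromosome 2, 12106632 to 12301922) pairs with Itgb1 as a receptor for fibronectin and nephronectin and is found in mesenchymal and smooth muscle cells. It measured 59.6, 63.2 and 64.0 CPM in cKO mice and 49.4, 43.9 and 25.7 CPM in controls. It was higher in every cKO mouse, with little spread among them and a low value in control 3. The log2 fold change was 0.65 (SE 0.215, edgeR adjusted p = 0.199, DESeq2 adjusted p = 0.0363). The DESeq2 call was lost without any 1 cKO mouse and without control 2 (adjusted p up to 0.171), and without control 3 the edgeR value was 0.42. Dental mesenchyme markers, all 9 with reads, summed to 25665, 18715 and 33769 CPM in cKO mice and 16087, 12999.6 and 9264 CPM in controls. Most of that sum was Col1a1. DESeq2 called 5 of the 9 higher, against 3.93% of all genes, and none lower. Log2 fold changes lay above 0 for 7 of the 9 and below 0 for 2, Lhx6 (-0.44) and Barx1 (-0.68). Of 8 pericyte and smooth muscle markers, DESeq2 called the contractile genes Acta2 (log2 fold change -1.26), Cnn1 (-2.86), Myh11 (-0.79) and Tagln (-1.41) lower and Cspg4 (0.27) and Notch3 (0.19) higher. Their summed level overlapped, at 1029, 1182 and 1077 CPM in cKO mice and 1258, 1128 and 1302 CPM in controls. The part of either cell type in the Itga8 result was not tested.

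Itga7 (chromosome 10, 128933818 to 128958282), a laminin receptor of muscle and vessel walls, measured 7.02, 7.52 and 6.63 CPM in cKO mice and 6.05, 5.70 and 5.78 CPM in controls, a log2 fold change of 0.27 (SE 0.0996, edgeR adjusted p = 0.230). The male control 1, whose muscle markers were high, had the highest Itga7 level of the controls, at 6.05 CPM. The parts of muscle and of sex in the Itga7 result were not tested. Itgb5 (chromosome 16, 33829665 to 33949338), a vitronectin receptor chain, measured 224, 221 and 184 CPM in cKO mice and 230.1, 232 and 268 CPM in controls, a log2 fold change of -0.22 (SE 0.0994, edgeR adjusted p = 0.319). Both had groups that did not overlap, by small margins. Itgb1 (chromosome 8, 128685654 to 128733200), the common beta chain, measured 811, 768 and 774 CPM in cKO mice and 812, 867 and 765 CPM in controls. Its groups overlapped, with a log2 fold change of -0.055 (SE 0.0790, edgeR adjusted p = 0.771).

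The 4 collagen-binding alpha chains split in direction. Itga1 and Itga10 had log2 fold changes of 0.24 (SE 0.106) and 0.33 (SE 0.142), and Itga2 and Itga11 of -0.33 (SE 0.140) and -0.28 (SE 0.137), and none passed either test. Per kilobase of exon Itga11, the fibroblast collagen receptor, led this pool, at 42.2% ± 2.03 in cKO mice and 46.2% ± 3.47 in controls (SD, n = 3 each). Itga1 made up 12.9% ± 0.557 in cKO mice and 9.78% ± 1.21 in controls, and Itga10 16.2% ± 3.78 in cKO mice and 11.4% ± 1.82 in controls. Itga2 made up 26.5 to 30.1% in cKO mice and 31.1 to 34.7% in controls. The groups did not overlap for these 3 shares (exact permutation p = 0.10, 0.225 adjusted over the 27 shares). Without cKO 3 the difference for Itga10 was 2.61 percentage points, against 4.79 with all mice. Itga10, known from cartilage, shares 33.5% of its exonic bases with Gm42957 on the same strand. Itga5, the fibronectin receptor chain, had a log2 fold change of 0.17, and Itga9, Itgb3 and Itgb8 lay at -0.047, -0.12 and 0.038, with groups that overlapped.

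**Figure D5:**
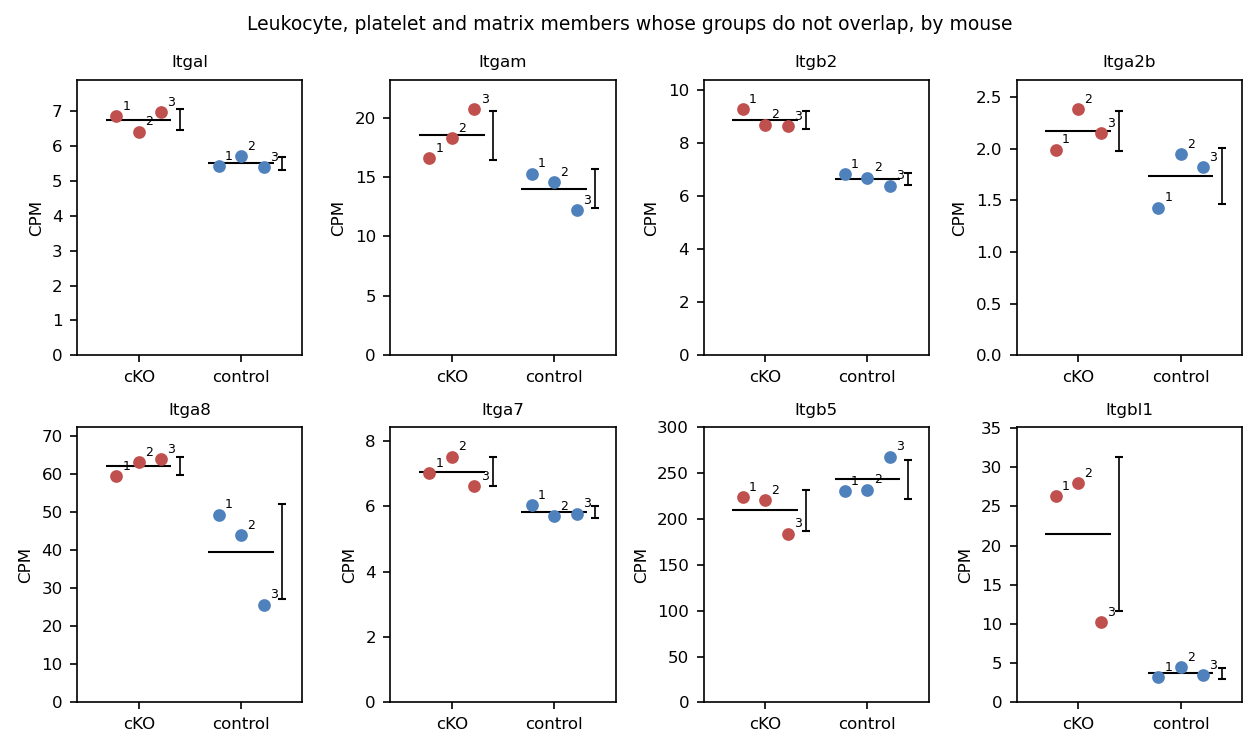
Level in CPM (linear axis) for each mouse, numbered by replicate, of 8 members outside the epithelial and laminin classes whose groups do not overlap, with cKO left of control; lines are means and bars 1 SD (n = 3 each). Itgb5 lies lower and the other 7 lie higher in every cKO mouse, with Itgbl1 at 10.2 to 28.0 CPM in cKO mice and 3.22 to 4.54 CPM in controls.

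Itgbl1 had the largest fold change of the 37 tested members. It encodes a secreted protein of EGF-like repeats that resembles the stalk of an integrin beta chain and is not a receptor. Itgbl1 (chromosome 14, 123659971 to 123975618) measured 26.3, 28.0 and 10.2 CPM in cKO mice and 3.22, 4.54 and 3.48 CPM in controls. Every cKO mouse lay above every control, although cKO 3 stood well below the other cKO mice. The level in cKO mice was 5.73 times that of controls, a log2 fold change of 2.52 (SE 0.380). It missed the edgeR threshold over all genes (adjusted p = 0.0645) and passed that of DESeq2 (adjusted p = 5.32e-11), which called it in all 6 fits without 1 mouse. Without cKO 3 it passed with edgeR too, at 2.85 (adjusted p = 0.0131), and over the fits without 1 mouse the value ran from 2.29 to 2.85.

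Levels per kilobase of exon put Itgb1 first among the integrin genes, at a mean of 192 CPM per kb in cKO mice and 199.6 CPM per kb in controls. Itgb5 followed at 58.9 CPM per kb in cKO mice and 68.5 CPM per kb in controls, then Itga6 at 30.1 CPM per kb in cKO mice and 31.7 CPM per kb in controls. Among laminins Lamb3 stood at 45.2 CPM per kb in cKO mice and 72.3 CPM per kb in controls, and Lamc1 at 52.4 CPM per kb in cKO mice and 48.9 CPM per kb in controls, so Lamb3 ranked below Lamc1 in cKO mice and above it in controls. The lowest tested member was Itgae, at 0.0871 CPM per kb in cKO mice and 0.0687 CPM per kb in controls.

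Genes that work with integrins and laminins gave no call over all genes tested by edgeR, in any of the 4 lists examined. Of 29 focal adhesion adaptors and kinases, the proteins that link integrin tails to actin, 3 were higher and 7 lower at an unadjusted p under 0.05 (34.5%, against 17.3% of all tested genes, of which 8.71% higher and 8.55% lower), with a median log2 fold change of 0.0013. DESeq2 called 3 of them, or 10.3% against 7.48% of all, namely Fermt3, Tns4 and Actn1. Fermt3, the kindlin of blood cells that activates integrins, measured 15.7, 13.7 and 14.4 CPM in cKO mice and 9.05, 10.0 and 10.6 CPM in controls (log2 fold change 0.56, edgeR adjusted p = 0.0695). Tns4, an epithelial tensin, measured 44.2, 37.6 and 38.7 CPM in cKO mice and 17.1, 30.4 and 19.8 CPM in controls (log2 fold change 0.84, edgeR adjusted p = 0.117). The actin crosslinker Actn1 and the adaptor Parvb had log2 fold changes of -0.32 and -0.28, both with groups that did not overlap.

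Of 8 hemidesmosome and epidermal anchoring genes, 1 was higher and 3 lower at an unadjusted p under 0.05, against 17.3% of all tested genes, with a median of -0.055. The anchoring fibril collagen Col7a1 and the plakin Dst, which DESeq2 called (2 of 8, against 7.48% of all), had log2 fold changes of 0.43 and -0.24. Fermt1, the epithelial kindlin, lay at -0.53 and Col17a1, a collagen of the hemidesmosome itself, at -0.32, and neither passed. The keratins Krt5 and Krt14, which mark basal epithelium, lay at 0.15 and 0.38 with groups that overlapped.

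Of 24 other basement membrane genes, 2 were higher and 6 lower at an unadjusted p under 0.05 (33.3%, against 8.71% of all tested genes higher and 8.55% lower), with a median of 0.088. DESeq2, which called 20.8% of these and 7.48% of all, called Col4a3, Col4a4 and Ntn1 lower and Col15a1 and Sparc higher. Ntn1, a laminin-related guidance protein, measured 12.8, 11.8 and 8.12 CPM in cKO mice and 45.9, 24.3 and 49.5 CPM in controls (log2 fold change -1.87, edgeR adjusted p = 0.0669). Col4a4, a type IV collagen chain, measured 2.19, 2.29 and 1.92 CPM in cKO mice and 4.39, 4.07 and 4.68 CPM in controls (log2 fold change -1.04, edgeR adjusted p = 0.0614), and its head-to-head neighbour Col4a3 lay at -1.44. Of the 23 tested genes among 24 integrin ligands, 8 were higher and 1 lower at an unadjusted p under 0.05 (39.1%, against 8.71% of all tested genes higher and 8.55% lower), with a median of 0.23. Vcam1, the ligand of Itga4 on activated vessel and mesenchymal cells, had a log2 fold change of 0.72 (edgeR adjusted p = 0.0614), Adam15 of 0.25, and the collagen Col1a1 and the matrix protein Postn of 1.08 and 0.40. DESeq2 called these 4 and Tgfb3 higher and none lower, or 21.7% against 7.48% of all.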

How the data were processed

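Single-end reads of 75 cycles were taken from the proximal incisor of 3 cKO and 3 control mice. The authors deposited estimated counts per gene, made with Partek and STAR 2.6.1d on build mm10 as far as the submitters' processing notes say. The annotation, the strand setting and the treatment of multi-mapped reads were not given in the sources used here. A table of the authors' normalized values was not used here. For the present work the estimated counts were rounded and TMM-scaled after edgeR's filterByExpr, with its default minimum count of 10 and minimum total of 15, had kept 19264 of 25700 genes. Groups were compared with the quasi-likelihood F-test of edgeR 4.0.16 in R 4.3.3, two-sided and without covariates, and p-values were adjusted by Benjamini-Hochberg across the genes tested. Before TMM scaling 1 count was worth 0.0150 to 0.0187 CPM. Alternatives were DESeq2 1.42.0, its size factors, upper-quartile scaling, no filter, a filter of 1 CPM in 3 libraries, and each mouse left out. DESeq2 with each mouse left out was added after seeing the data. Per-mouse values were given for members at an unadjusted p under 0.05, called by DESeq2 or with groups that do not overlap, and for some of their partner chains. Levels per kilobase use exonic lengths of GENCODE M21, found for all 38 members, of which 12 share exonic bases with another gene, antisense genes included. Coordinates are those of the deposited table, with the end reduced by 1. Replicates were numbered in accession order, which pairs no mice. The protocol speaks of pairs of samples without saying which mice belong together, so every fit was unpaired. The p-values of the fits weigh a group difference against the variation between mice, estimated with information shared across genes. Chi-square per degree of freedom between libraries of a group was 50.8 to 80.8, so no library was counted as a repeat. The fits were first tested on simulated data, in which DESeq2 made more false calls than edgeR. The members, their classes, the companion lists and the marker lists were chosen with earlier results of these data known. Results for 1 member are not reported here, and counts over all members include it.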

Additional observations from a re-analysis of the deposited data

How the results depend on the processing

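The count of 0 members called by edgeR held under DESeq2 size factors, upper-quartile scaling, no filter and a filter of 1 CPM (which left Itgae untested), and ran from 0 to 1 with 1 mouse left out, the 1 being Itgbl1, higher, without cKO 3. DESeq2 called 8 members, 4 higher and 4 lower. DESeq2 called 11 members without cKO 1, 7 without cKO 2, 6 without cKO 3, 9 without control 1, 4 without control 2 and 4 without control 3, with 2 to 5 higher and 1 to 7 lower. Over all genes edgeR called 5, DESeq2 1327, and edgeR without 1 mouse 0 to 72, the 72 without control 2. In the companion lists DESeq2 called 3 focal adhesion, 2 hemidesmosome, 5 basement membrane and 5 ligand genes, and edgeR without 1 mouse 0 to 1 in the focal adhesion, basement membrane and ligand lists. Medians of log2 fold change without 1 mouse ran from 0.25 to 0.40 for leukocyte integrins, 0.12 to 0.23 for matrix alpha chains, -0.028 to 0.094 for laminins outside the epithelial class, -0.14 to -0.014 for matrix beta chains, -0.035 to 0.074 for other basement membrane genes and 0.16 to 0.29 for ligands. Single members changed sign only with 1 mouse left out, and the cause was not tested: Itga6 (-0.23 to 0.011, above 0 without cKO 3), Itgae (-0.041 to 0.72), Itgb7 (-0.25 to 0.25), Itgb3 (-0.21 to 0.017), Itgb8 (-0.086 to 0.16), Lama2 (-0.17 to 0.14, also -0.0089 without cKO 3), Lama5 (-0.037 to 0.14) and Lamb1 (-0.085 to 0.033, also 0.031 without cKO 3 and 0.018 without control 1). Among the 4 settings with all mice and edgeR, the median of all genes moved by at most 0.011, under no filter. No paired analysis was possible because the labels give the groups no shared replicate numbers and the protocol, which speaks of pairs of samples, does not say which mice form them. With 3 mice a group the share tests cannot go below 0.10, and counts of Itgad are too few to compare.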

Other observations

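The table also holds 4 genes with integrin-like symbols that are not integrin chains or were outside the selection. Itgb2l, a paralog of Itgb2, had 23, 6 and 0 counts in cKO mice and 1, 0 and 0 in controls, too few to test. Neutrophil and marrow markers summed to 52.0, 23.4 and 2.83 CPM in the same cKO mice. Their part in the Itgb2l counts was not tested. Itgb1bp2, a muscle protein that binds integrin tails, had 47 counts in control 1, whose skeletal muscle markers were high. Its counts were 9 to 16 in cKO mice and 8 and 14 in the other controls, and the part of muscle was not tested. Itgb1bp1, a regulator of integrin activation, had 1207, 1069 and 1088 counts in cKO mice and 967, 1093 and 952 in controls (log2 fold change 0.057, edgeR adjusted p = 0.728). Itgb3bp, a centromere protein despite its symbol, measured 5.38 to 6.27 CPM in cKO mice and 5.83 to 6.93 CPM in controls (log2 fold change -0.13, edgeR adjusted p = 0.622).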
